A study of Mus musculus with 20 samples.

Results

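The immediate early transcription factor genes Nr4a1, Egr1, Fos, Fosb, Jun and Junb were examined for 4 histone modifications in mouse hematopoietic stem cells. The members were all peaks that overlapped 1 of 6 fixed windows of the mm9 genome, 1 window per gene, in any of 8 deposited peak lists. These were 177 of 218887 peaks, or 0.0809%. The windows were chromosome 15 from 101060000 to 101110000 for Nr4a1, chromosome 18 from 35010000 to 35040000 for Egr1, chromosome 12 from 86800000 to 86840000 for Fos, chromosome 7 from 19875000 to 19905000 for Fosb, chromosome 4 from 94700000 to 94740000 for Jun and chromosome 8 from 87490000 to 87510000 for Junb. The genes were chosen by name, but with values of these lists in view, among them the width of the fetal H3K27ac peak at Nr4a1. Widths and presence of marks are therefore given as a description.

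The fetal cells came from the liver of B6129SF1 embryos at day 14.5, and the adult cells from the bone marrow of B6129SF1 mice 6 to 8 weeks old. Both were sorted as lineage-negative, Sca1-positive, cKit-positive and CD135-negative cells, with no genetic change or treatment named in the labels, and 50000 sorted cells entered each ChIP. The labels describe 2 replicates of H3K4me3, H3K27ac, H3K4me1, H3K27me3 and input per stage. The deposited lists are titled as combined, so each was taken as 1 call on pooled replicates. No value therefore carries a replicate error, no difference between stages was tested, and a stage and its library cannot be told apart. The read depth behind the lists is unknown, and gene positions of mm9 were not used here, so neither the sorted cells nor the placement of a gene within its window was checked against gene positions.

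Immediate early genes are transcribed within minutes of a growth factor, cytokine or stress signal without the need for new protein synthesis. Fos and Fosb encode basic leucine zipper proteins that pair with Jun or Junb to form the AP-1 transcription factor. Egr1 encodes a zinc finger protein and Nr4a1 an orphan nuclear receptor, and both genes have been linked to the quiescence of adult hematopoietic stem cells. H3K4me3 marks promoters. H3K27ac marks promoters and enhancers in use, H3K4me1 lies over enhancers and the flanks of promoters, and H3K27me3 is laid down by the Polycomb complex at silenced genes.

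The region just upstream of the gene start is shown here because each window held H3K4me3, the promoter mark, at both stages. The sequences are the 250 bases before the start in the RefSeq promoter table of GRCm38.p6, which held 5 of the 6 genes. They are written 5′ to 3′ on the strand of the gene, and their coordinates are those of GRCm38, not of the peak lists. Capitals mark TGACG, or CGTCA on the other strand, the core of the cyclic AMP response element through which CREB-family factors act.
Nr4a1, chr15:101266596-101266845, plus strand: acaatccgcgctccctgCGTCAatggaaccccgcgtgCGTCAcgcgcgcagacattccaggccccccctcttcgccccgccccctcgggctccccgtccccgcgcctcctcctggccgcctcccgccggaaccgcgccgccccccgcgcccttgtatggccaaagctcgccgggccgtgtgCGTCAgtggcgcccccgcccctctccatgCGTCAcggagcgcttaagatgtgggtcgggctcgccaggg
Fos, chr12:85473640-85473889, plus strand: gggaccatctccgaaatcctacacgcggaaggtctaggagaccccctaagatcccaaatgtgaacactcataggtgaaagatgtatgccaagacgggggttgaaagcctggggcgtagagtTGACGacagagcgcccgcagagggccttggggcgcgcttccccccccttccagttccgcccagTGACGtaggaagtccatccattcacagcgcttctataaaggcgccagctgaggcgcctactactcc
Fosb, chr7:19310046-19310295, minus strand: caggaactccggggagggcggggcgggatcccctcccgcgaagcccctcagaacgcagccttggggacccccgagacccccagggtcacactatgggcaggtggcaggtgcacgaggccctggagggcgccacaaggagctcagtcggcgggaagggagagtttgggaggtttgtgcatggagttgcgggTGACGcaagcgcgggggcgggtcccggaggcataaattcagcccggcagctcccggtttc
Jun, chr4:95052223-95052472, minus strand: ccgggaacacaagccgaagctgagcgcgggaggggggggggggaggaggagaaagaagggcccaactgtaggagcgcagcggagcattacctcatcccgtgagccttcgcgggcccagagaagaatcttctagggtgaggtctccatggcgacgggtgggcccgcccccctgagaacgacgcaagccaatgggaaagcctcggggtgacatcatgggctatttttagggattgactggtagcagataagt
Junb, chr8:84978749-84978998, minus strand: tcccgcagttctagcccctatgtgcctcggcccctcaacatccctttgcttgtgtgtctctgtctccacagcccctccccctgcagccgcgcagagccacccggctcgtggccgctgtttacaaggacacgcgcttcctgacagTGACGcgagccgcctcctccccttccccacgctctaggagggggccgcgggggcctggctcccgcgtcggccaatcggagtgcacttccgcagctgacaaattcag

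The core was present in 4 of these 5 sequences, and in 17.8% of the 32851 promoter sequences of the same length in the table. Nr4a1 held 4 copies, starting at positions -233, -213, -69 and -40 from the gene start, and 0.137% of all promoters held at least 4. Fos held 2 copies, at -129 and -66, while Fosb held 1 at -60 and Junb 1 at -106. Jun held none in this window. The complete element TGACGTCA, which contains the core on both strands, was absent from all 5 and present in 1.55% of promoters. The AP-1 site, searched as TGANTCA, was also absent from the 5 and present in 6.75% of promoters. The CArG box bound by serum response factor, searched by its consensus on both strands, was found in none of the 5 and in 1.47% of promoters. These are matches of letters within 250 bases and not measured binding sites. The core contains CG, and the G and C content of the 5 sequences ran from 58.4% at Fos to 74.4% at Nr4a1. The background was all promoters, not matched for base composition, and held 32851 sequences for 27025 gene symbols. Whether the shares follow base composition was not tested.

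**Figure D1:**
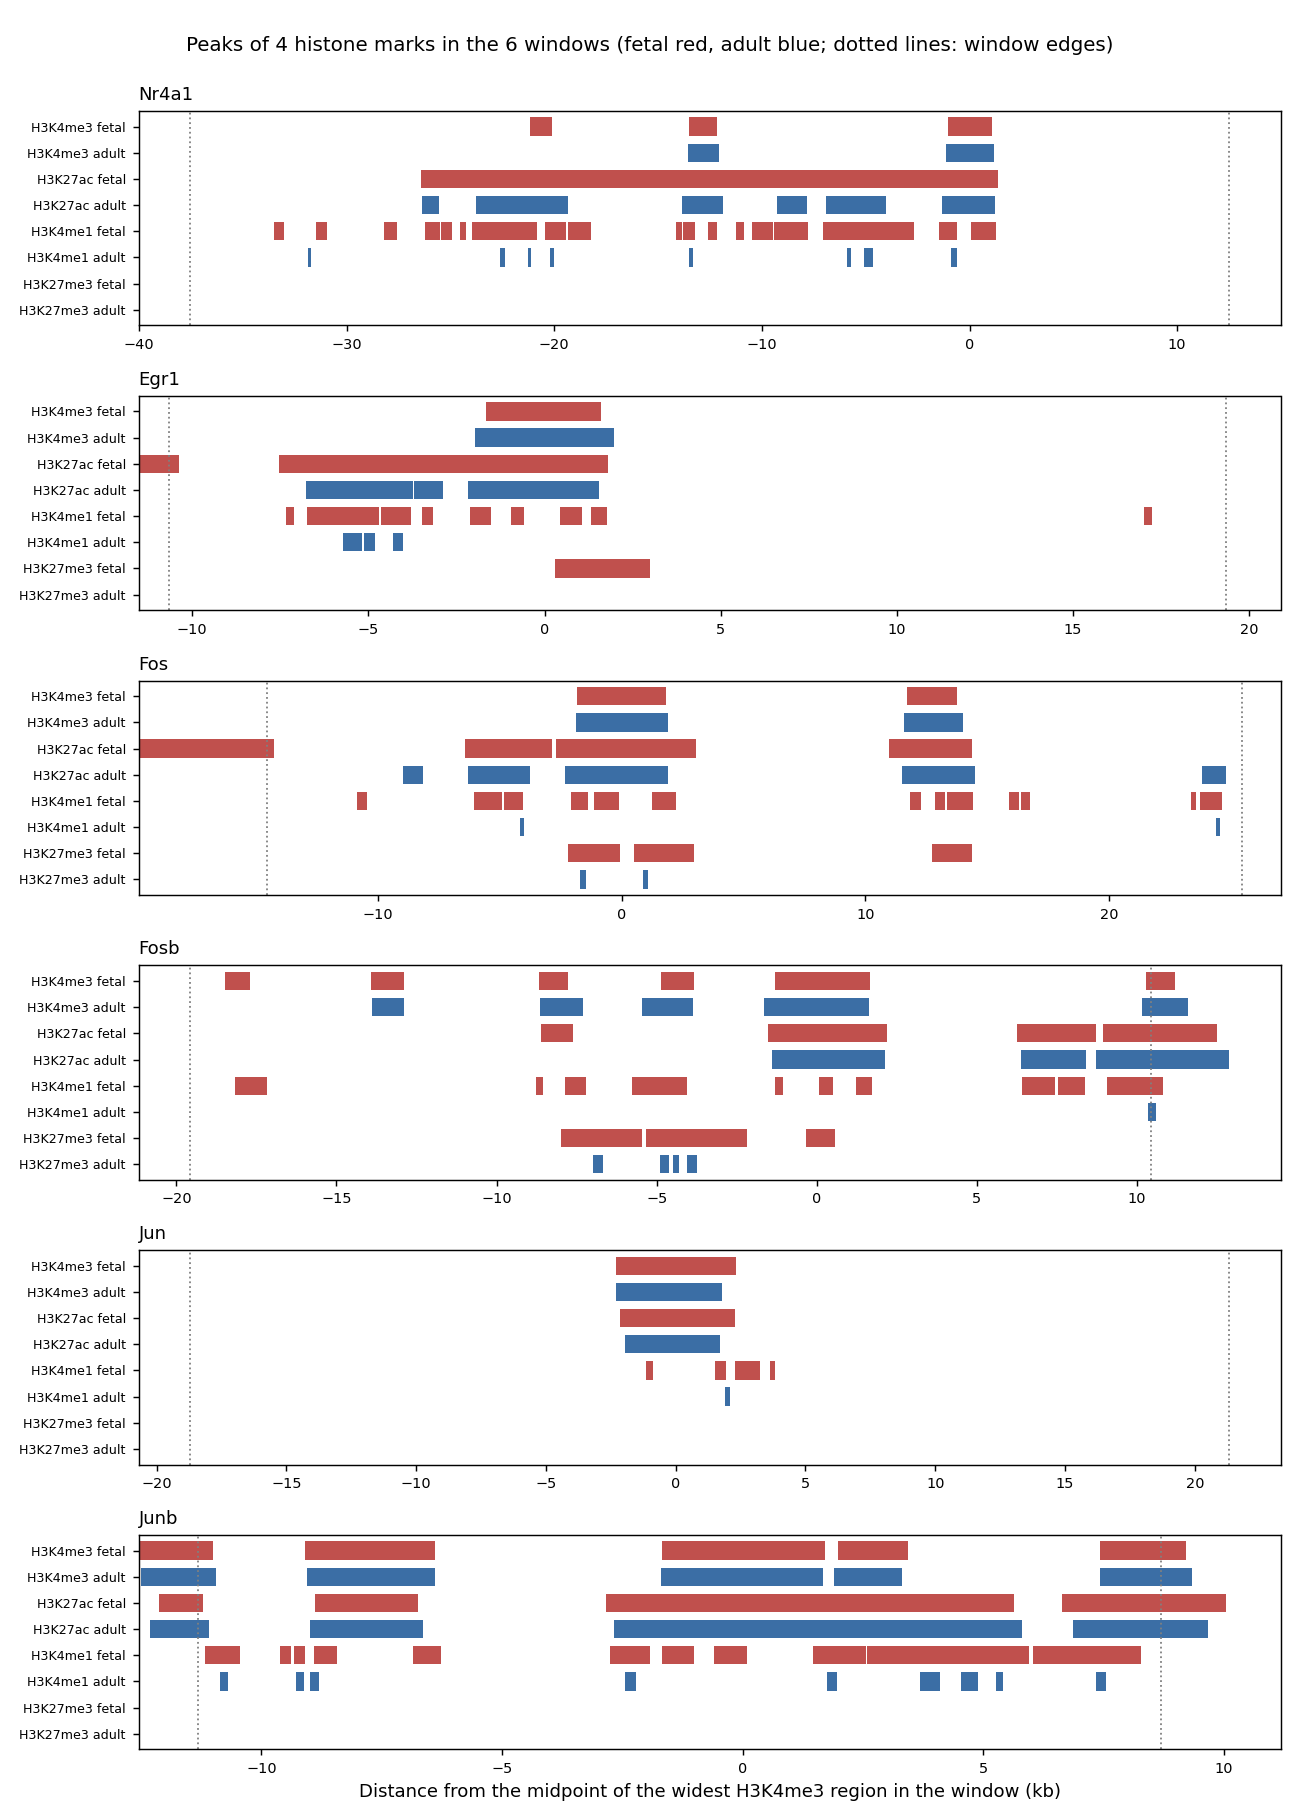
Peaks of the 4 marks in each window, with the distance in kb from the midpoint of the widest H3K4me3 region on the x axis and 1 row per mark and stage (fetal red, adult blue). Dotted lines are the window edges. The single fetal H3K27ac peak at Nr4a1 runs over all 6 adult ones, and H3K27me3 bars appear in the Egr1, Fos and Fosb windows but not in the Nr4a1, Jun and Junb windows.

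All 6 genes had H3K4me3 and H3K27ac at both stages. To compare them with other promoters, the fetal and adult H3K4me3 peaks were merged into regions, and the 15397 regions with a peak at both stages served as the background. The widest such region in each window stood for the gene. H3K27ac lay on that region in both stages at 6 of the 6 genes, and at 73.5% of all regions. A difference of at least 1.5 times in H3K4me3 covered length within 10 kb of the region's midpoint was found at none of the 6 genes and at 5.68% of all regions. Over the 6 windows together, H3K4me3 covered 34123 bp in the fetal and 34638 bp in the adult list, a ratio of 0.985, and 92.0% of the fetal length was also covered in the adult list. The same ratio over the whole lists was 0.987.

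The widest regions of 5 windows were broad. Each was chosen as the widest of its window but ranked against all single regions, which favours width where several peaks were listed. Egr1 and Jun had 1 H3K4me3 peak in each list, Fos 2, Junb 5, and Fosb 6 in the fetal and 5 in the adult list. The region at Jun was 4619 bp wide, and 2.12% of the 15397 regions were at least as wide. Egr1 followed with 3962 bp (4.11%), Fos with 3771 bp (5.05%), Junb with 3397 bp (8.09%) and Fosb with 3320 bp (9.08%). The region at Nr4a1 was 2310 bp wide, a width reached by 33.9% of regions, against a median of 1976 bp over all of them. Nr4a1 also stood apart in the authors' peak score, a value of the peak caller without a stated unit that is ranked here only within a list. The widest H3K4me3 peak in the Nr4a1 window scored 1298.42 in the fetal list, where 53.8% of peaks scored as high, and 918.88 in the adult list, where 58.3% did. For Egr1, Jun and Junb the score was 3100 at both stages, the value at which scores pile up.

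**Figure D2:**
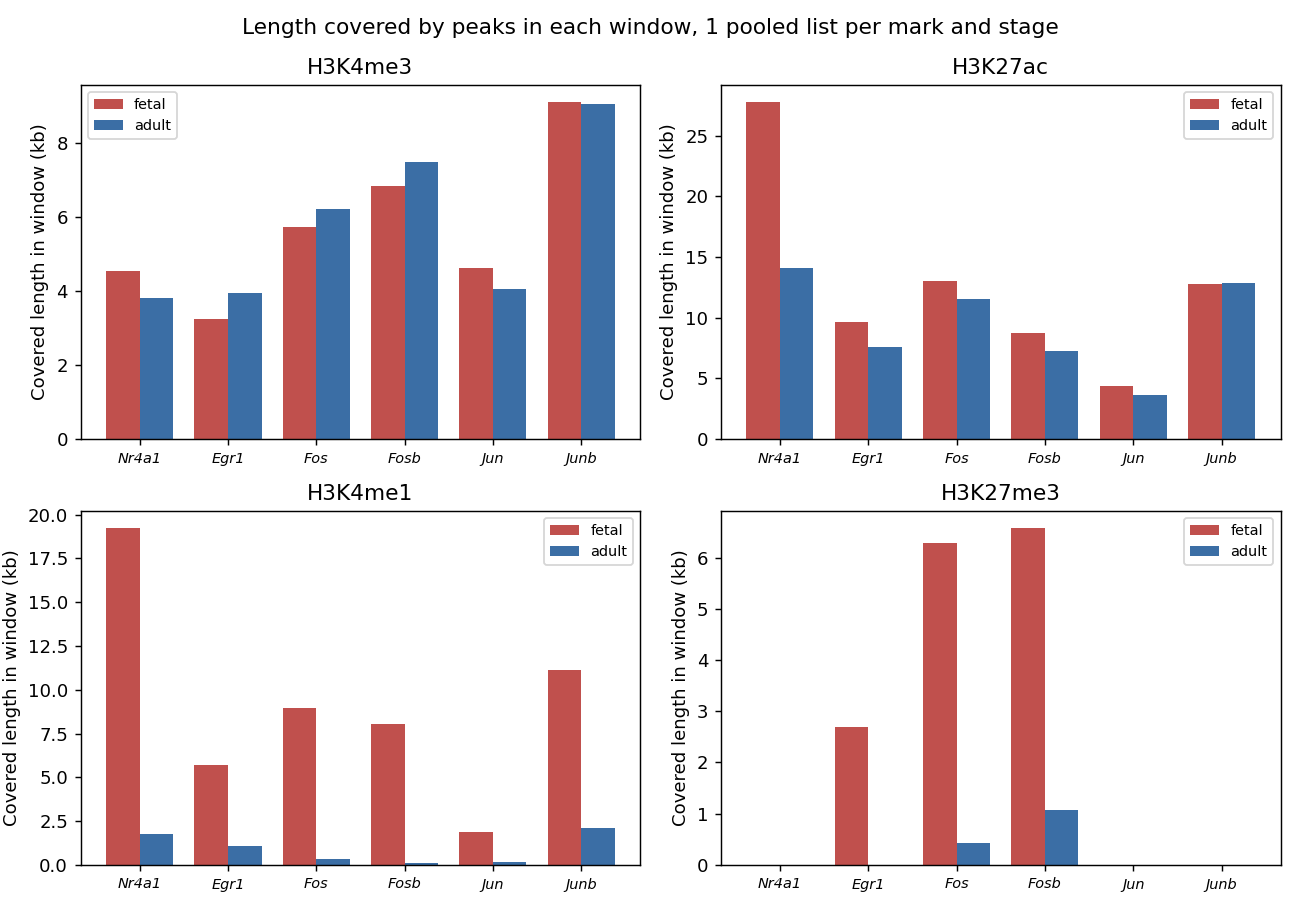
Length in kb covered by the peaks of each mark within each window, for the fetal (red) and adult (blue) lists. Bars are single values from 1 pooled list each, without error bars. The H3K4me3 bars differ least between stages (34123 and 34638 bp in all), whereas the H3K4me1 and H3K27me3 bars are higher in fetal wherever they occur.

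Among the Fos family, Fos is the classic growth-factor-induced partner of Jun. Its widest fetal H3K27ac peak, from 86811867 to 86817615, spanned 5749 bp, and the adult peak at the same place spanned 4221 bp. The fetal peak was flanked by peaks of 3565 bp, from 86808114 to 86811678, and of 3438 bp, from 86825511 to 86828948. Each of these had an adult counterpart, of 2539 and 3006 bp. These 3 elements were thus listed at both stages and were wider in the fetal list. A pair of small adult peaks, of 823 and 979 bp, had no fetal peak of the mark. In all, H3K27ac covered 13029 bp of the Fos window in fetal and 11568 bp in adult cells.

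Fosb encodes a second Fos protein. Its window held 4 fetal and 3 adult H3K27ac peaks that covered 8708 and 7294 bp. The peak on the widest H3K4me3 region spanned 3720 bp in the fetal and 3530 bp in the adult list, and both scored 3100. Further along the window, fetal peaks of 2484 and 3560 bp lay opposite adult peaks of 2027 and 4152 bp, so that the widest peak was at a different element in each list. The fetal peak of 2484 bp overlapped 2 adult peaks, but the second only at its edge. Of its 2047 bp covered in the adult list, 2027 bp were the first peak. At least 2 adult peaks lay under 3 of the 16 fetal H3K27ac peaks of the 6 windows, and under 3.32% of all fetal peaks. The 3 were this peak and those at Egr1 and Nr4a1, and the width at Nr4a1 was in view when the genes were chosen. The remaining fetal peak, of 992 bp from 19885954 to 19886945, had no adult H3K27ac. The window held 6 fetal and 5 adult H3K4me3 peaks, some of them with low scores. In the GRCm38 gene table Fosb lies between Rtn2 and Ercc1.

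Jun encodes the main partner of the Fos proteins and had the simplest pattern. A single H3K27ac peak was listed in each stage, 4403 bp wide in the fetal (94716565 to 94720967) and 3661 bp wide in the adult list (94716735 to 94720395). The adult peak lay wholly inside the fetal one, and both lay wholly on H3K4me3. No H3K27ac outside H3K4me3 was listed in the 40 kb window at either stage. Outside the window the nearest fetal H3K27ac peaks were 53.1 kb before and 8.74 kb after it.

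Junb, whose product can dampen Jun activity and restrains myeloid growth, had the widest adult H3K27ac peak of the 6 genes. Its widest peak spanned 8490 bp in the fetal list, from 87498469 to 87506958, and 8484 bp in the adult list, from 87498636 to 87507119. These ranked 114 of 23797 and 27 of 18205 by width. They shared 8323 bp. The window as a whole was covered by 12789 bp of fetal and 12871 bp of adult H3K27ac, a ratio of 0.994, and 97.0% of the fetal length was shared. Junb thus had the ratio nearest to 1 of the 6 windows. In the gene table Junb lies between Prdx2 and Hook2, and 5 H3K4me3 peaks were listed in this window of 20 kb at both stages, and peaks were not assigned to one gene or another.

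At Egr1 a single fetal H3K27ac peak lay over several closely spaced adult ones. The fetal peak, from 35013108 to 35022464, spanned 9357 bp and ranked 74 by width. It overlapped 3 adult peaks of 3024, 818 and 3716 bp, which covered 80.8% of it. The gaps between the adult peaks measured only 54 and 690 bp, and merging peaks within 1 kb joined them into 1 adult peak of 8302 bp. Of all fetal H3K27ac peaks, 0.34% overlapped at least 3 adult ones. The last adult piece lay on the H3K4me3 region, while the first, which scored 2754.92, lay beside it and off H3K4me3. H3K27ac outside H3K4me3 measured 6394 bp in the fetal and 4044 bp in the adult Egr1 window.

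Of the 6 windows, Nr4a1 had the largest fetal to adult ratio of H3K27ac. A single fetal H3K27ac peak ran from 101071122 to 101098900, and its width of 27779 bp was the largest of 23797 fetal peaks. By score it was not extreme, at 915.7, which 23.1% of its list reached. The next fetal peaks by width spanned 20835 and 19192 bp. In the adult list the same stretch held 6 peaks of 806, 4423, 1959, 1461, 2874 and 2563 bp, all of them inside the fetal peak. They covered 14086 bp, or 50.7% of it, and the gaps between them measured 1762, 5519, 2617, 896 and 2689 bp. No other fetal H3K27ac peak overlapped as many as 6 adult peaks (0.0042% of the list). Covered length in the window was 1.97 times as long in fetal as in adult cells, and 3.11 times when only peaks at or above the median score of their list were kept. That filter left the single fetal peak whole and took out the adult peaks of 806, 1461 and 2874 bp. These scored 52.34, 114.94 and 263.26, reached by 98.3%, 74.7% and 53.7% of the adult list. The adult peaks of 4423, 1959 and 2563 bp scored 1385.27, 1156.3 and 1211.57, reached by 13.6%, 17.4% and 16.4%. Whether the rise follows from how the peaks were split or from low adult scores was not tested.

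The acetylation at Nr4a1 lay mostly away from H3K4me3. Of the fetal H3K27ac length in the window 83.6%, or 23237 bp, was outside fetal H3K4me3, and of the adult length 72.9%, or 10268 bp. The fetal peak held 3 H3K4me3 peaks, of 1056, 1346 and 2140 bp. The last 2 had adult counterparts of 1508 and 2310 bp, and the first, from 101076337 to 101077392, was listed in the fetal cells only and scored 97.57, near the low end of its list. Over the 6 windows, 60.4% of fetal and 49.0% of adult H3K27ac length was outside H3K4me3, against 53.8% and 32.0% over the whole lists. The pooled fetal share leaned on the long peak at Nr4a1, and the windows differed widely. The fetal share was 66.3% at Egr1, 56.0% at Fos, 54.4% at Fosb, 34.6% at Junb and 0% at Jun. In adult cells it was 53.5%, 46.3%, 54.9%, 33.1% and 0% in the same order.

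**Figure D3:**
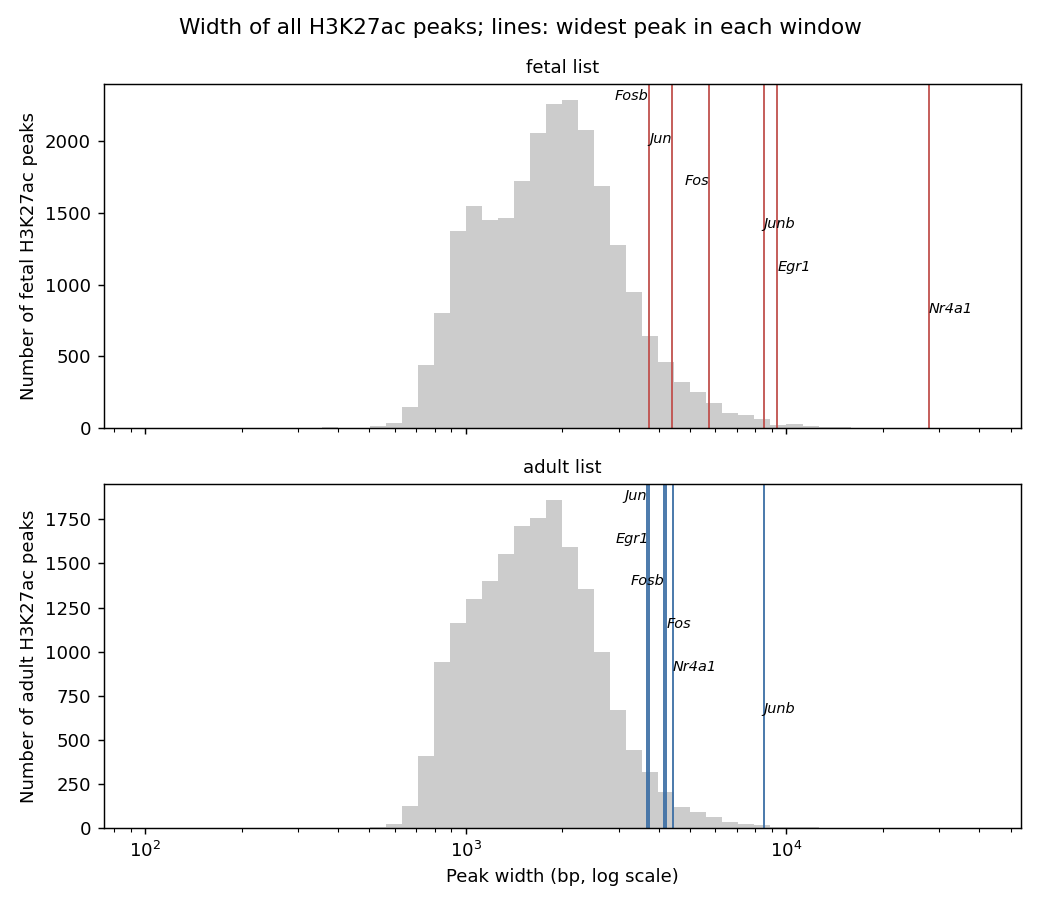
Number of H3K27ac peaks by width in bp (log scale) in the fetal list (top) and adult list (bottom), with a line at the widest peak of each window. The 6 fetal lines run from 3720 to 27779 bp and the 6 adult lines from 3661 to 8484 bp, each the maximum of its window, and the Nr4a1 line lies at the far end of the fetal list.

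The widest of several peaks is wide by its choice, so the genes were set beside the widest H3K27ac peak within 10 kb of the midpoint of each of the 15397 H3K4me3 regions. A fetal peak as wide as that of the gene was found at 0.474% of regions for Egr1, 0.760% for Junb, 3.05% for Fos, 6.72% for Jun and 10.5% for Fosb. For Nr4a1 the share was 0.013%, but its peak was the widest of the list. Only regions within 10 kb of that same peak could count, so this share gives no comparison with other promoters. In the adult list these shares were 0.286% for Junb, 3.53% for Fos, 3.73% for Fosb, 5.44% for Egr1, 5.73% for Jun and 12.7% for Nr4a1, whose widest adult peak within this distance spanned 2874 bp. Over its whole window the widest adult peak at Nr4a1 spanned 4423 bp, and the ratios that follow are of whole windows. The widest fetal peak was broader than the widest adult one at Nr4a1 (6.28 times), Egr1 (2.52 times), Fos (1.36 times) and Jun (1.20 times). It was nearly equal at Junb, and narrower at Fosb (0.896 times), where the widest peak lay at a different element in each list. On the widest H3K4me3 region at Fosb the peaks spanned 3720 bp in the fetal and 3530 bp in the adult list. The ratios of the widest peaks depended on how gaps were treated. With peaks within 1 kb merged, an alternative chosen for widths after the data had been seen, the ratio was 5.31 at Nr4a1, 1.13 at Egr1, 2.25 at Fos, 1.20 at Jun, 1.52 at Junb and 0.966 at Fosb. The covered length of the peaks as listed was 1.28 times as long in fetal cells at Egr1, 1.13 times at Fos, 1.19 times at Fosb and 1.20 times at Jun. Over the 6 windows the ratio was 1.34, and over the whole lists 1.51. These are unlike sets, since every window held an acetylated H3K4me3 region. Of the windows only Nr4a1, at 1.97, lay above the ratio of the lists. Beside other H3K4me3 regions the order was the other way, with a median ratio of 1.22 for the genes and 1.15 for the regions.

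Within 10 kb of the midpoint of the widest H3K4me3 region, only Nr4a1 reached a fetal to adult ratio of 1.5 in H3K27ac covered length (11377 and 6898 bp, ratio 1.65). This was 1 of 6 genes, and 19.1% of the 15397 regions reached it. A ratio of 1.5 in the other direction was found at 0 of 6 genes and at 7.84% of regions. The median ratio was 1.22 for the 6 genes and 1.15 for the 11981 regions with H3K27ac at both stages. The amount of acetylation, in contrast to its ratio, was high at most of the genes. Junb had 14000 bp of fetal H3K27ac within this distance, reached by 0.143% of regions, and 13620 bp of adult H3K27ac, reached by 0.110%. For Nr4a1 these shares were 0.812% and 3.34%, for Egr1 2.01% and 2.42%, for Fos 2.07% and 2.39%, for Fosb 3.54% and 3.42%, and for Jun 17.05% and 16.6%.

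**Figure D4:**
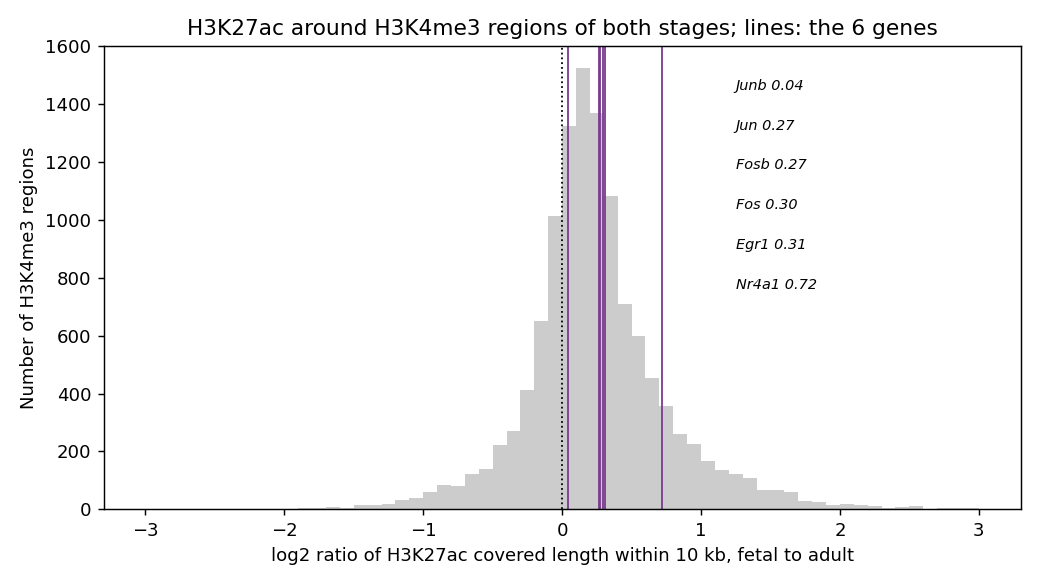
Number of H3K4me3 regions by the log2 ratio of fetal to adult H3K27ac covered length within 10 kb of the midpoint, for regions with H3K27ac at both stages, with lines at the 6 genes and a dotted line at equal length (12 regions lie outside the plotted range). The genes run from 0.04 at Junb to 0.72 at Nr4a1, and 4 of them lie between 0.27 and 0.31, close to the median region at 0.20.

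In every window H3K4me1 was listed at both stages, in 68 fetal peaks against 24 adult ones. Fetal peaks covered 54938 bp and adult peaks 5518 bp. A fetal length of at least 1.5 times the adult length within 10 kb of the H3K4me3 region was found at 6 of 6 genes, but also at 90.4% of all regions, and fetal H3K4me1 covered 20.4 times the adult length over the whole lists. The 6 windows therefore followed the difference between the lists, with a smaller ratio of 9.96. With equal numbers of top-scoring peaks from both stages, the Jun window kept no fetal H3K4me1 peak and its ratio was 0 in place of 11.2.

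The widest fetal H3K4me1 peaks lay at Nr4a1 and Junb. Under the 27779 bp fetal H3K27ac peak at Nr4a1 lay 17 fetal H3K4me1 peaks that covered 17625 bp, against 7 adult peaks that covered 1587 bp. The widest of them, from 101090454 to 101094588, spanned 4135 bp, a width reached by 0.321% of its list. At Junb a fetal H3K4me1 peak of 3349 bp, from 87503906 to 87507254, lay at the end of the 8490 bp H3K27ac peak, and 0.664% of the list was as wide. The widest fetal peak at Egr1 spanned 2019 bp, from 35013929 to 35015947, on the part of the H3K27ac peak beside H3K4me3.

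Egr1 had the widest adult H3K4me1 peak of the 6 windows, 534 bp from 35014951 to 35015484, inside that same fetal peak. In fetal cells the widest H3K4me1 peak spanned 1176 bp at Fos, 1734 bp at Fosb and 948 bp at Jun. Of the H3K4me1 length in the 6 windows, 79.4% in fetal and 87.7% in adult cells was covered by H3K27ac of the same stage, against 43.7% and 46.2% over the whole lists. These are unlike sets, since every window held an acetylated H3K4me3 region. The Jun window differed from the others, with 38.5% of fetal H3K4me1 length under H3K27ac and none of the single adult peak of 166 bp.

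H3K27me3 divided the genes. It was listed in the Egr1, Fos and Fosb windows and in no list at Nr4a1, Jun or Junb. On the widest H3K4me3 region it was present in fetal cells at 3 of 6 genes (Egr1, Fos and Fosb), and at 21.1% of all regions. In adult cells it was present at 1 of 6 (Fos), and at 13.2% of regions. Egr1 and Fosb, 2 of 6 genes, had it in the fetal list and not in the adult one, as did 8.27% of regions. The call at Fosb rests on a fetal peak below the median score of its list. With peaks of both marks below their median score left out, H3K4me3 and H3K27me3 overlapped in 2 in place of 3 fetal windows. At Fosb this also took out H3K4me3 peaks, scoring 419.17 and 102.59, that longer and better-scoring H3K27me3 peaks overlapped.

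At Egr1 the fetal H3K27me3 peak ran from 35020962 to 35023647 (2686 bp) and scored 1086.81, a score reached by 18.4% of its list. It covered 42.3% of the H3K4me3 region and passed beyond its end. No adult H3K27me3 peak was listed in the window.

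At Fos a pair of fetal H3K27me3 peaks of 2147 and 2462 bp covered 84.5% of the widest H3K4me3 region, and another of 1679 bp overlapped the second H3K4me3 peak of the window. The adult list held only 2 peaks there, of 243 and 183 bp, each inside one of the fetal peaks. Short H3K27me3 peaks were usual in the adult list, whose 22964 peaks had a median width of 278 bp. The 14823 fetal peaks had a median of 1406 bp. The widths of the 2 adult peaks at Fos were reached by 59.2% and 79.9% of the adult list. Their scores of 61.27 and 52.2 were low in a list in which 74.5% and 93.1% of peaks scored as high. They covered 11.3% of the region, and neither was left when only peaks at or above the median score were kept.

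At Fosb the longest fetal H3K27me3 peaks, of 2539 and 3156 bp, ran from 19886566 to 19889104 and from 19889235 to 19892390, beside the widest H3K4me3 region rather than on it. A small fetal peak of 893 bp, with a score of 87.38, lay on that region and covered 26.9% of it. The 4 adult peaks, of 309, 278, 185 and 294 bp, all lay inside the 2 long fetal ones, and together covered 1066 bp. In the adult list they overlapped 637 bp of H3K4me3, at the neighbouring peak from 19889087 to 19890681, and no H3K27ac.

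**Figure D5:**
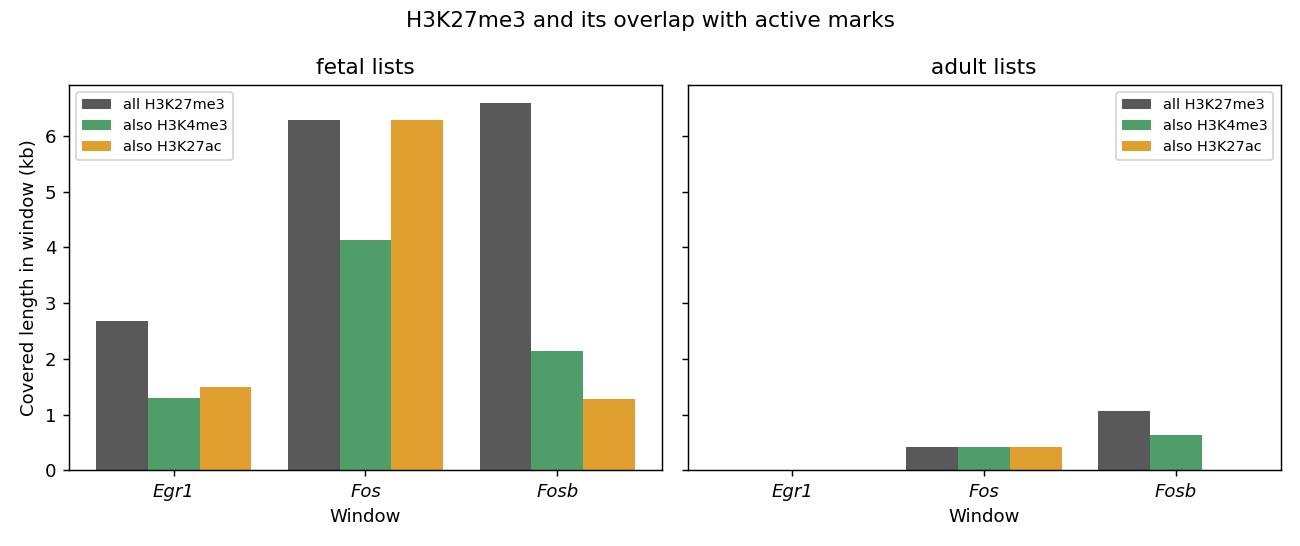
Length in kb of H3K27me3 in the Egr1, Fos and Fosb windows (grey), and of the parts also covered by H3K4me3 (green) or H3K27ac (yellow) of the same stage, in the fetal (left) and adult (right) lists. In the fetal lists nearly all H3K27me3 at Fos is also covered by H3K27ac, while most of it at Fosb is not.

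Fetal H3K27me3 and H3K27ac were listed over the same bases at these loci. On the widest H3K4me3 region both marks were present in fetal cells at 3 of 6 genes and at 7.48% of all regions. In adult cells they were at 1 of 6 and at 4.6% of regions. All 6 genes had H3K27ac on this region at both stages, so these counts repeat those of H3K27me3 alone. Not all background regions were acetylated, so the shares are no separate comparison. Presence on a region did not require the marks to share bases. At Fos 6284 of the 6288 bp of fetal H3K27me3 were covered by fetal H3K27ac. At Egr1 this was 1503 of 2686 bp, and at Fosb 1273 of 6588 bp. Over the 6 windows 58.2% of fetal H3K27me3 length was under H3K27ac, against 3.08% over the whole fetal list. Of the 9060 bp so covered, 6284 were at Fos. These are unlike sets, since every window held an acetylated H3K4me3 region. In the windows 48.7% of fetal H3K27me3 length was on H3K4me3, and over the whole fetal list 11.1%. Peak lists of pooled cells do not show whether the marks were on the same allele or in the same cell, which was not tested.

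Summed over the windows, H3K27me3 covered 15562 bp in fetal and 1492 bp in adult cells, a ratio of 10.4, against 4.10 for the whole lists. This ratio was 25.6 with peaks at or above the median score and 27.2 with equal numbers of top-scoring peaks. All 1492 adult bases lay within fetal peaks. Of the 177 peaks, 16 crossed a window edge. At Fos an edge separated a pair of like peaks. The fetal H3K27ac peak from 86794731 to 86800277 entered the window by 277 bp and was counted, and the adult peak from 86794594 to 86798705 ended 1.29 kb before the window and was not. At Egr1 a fetal H3K27ac peak of 1155 bp entered by 291 bp.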

How the data were processed

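ChIP-seq libraries of 20 samples in 10 groups underlie 8 peak lists, 1 per mark and stage, with chromosome, start, end, name and score per peak. Bowtie2 2.2.2 and the build mm9 are named in the submitters' processing notes, and each deposited peak is named MACS_peak, after a peak caller. The caller's version, settings and control are not given in the sources used here. The peak score is the authors' own deposited value, at least 50 in each list, and was ranked within a list only. Files of single replicates, coverage and the inputs were not analysed here. Widths and covered lengths depend on the depth and settings of the pooled call, which are unknown.

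Chromosomes 1 to 19, X and Y were kept, and overlap meant at least 1 bp. Covered length was counted inside each window. Coordinates are 1-based. Background regions were H3K4me3 peaks of both stages merged, with a peak at each stage, and a ratio was called at 1.5. No test or p-value was possible with 1 list per group, and p-values are therefore absent. The members and windows were chosen with earlier results of these data known. Each of the 6 genes was described in every list, with the widest peak of each mark named where listed. A planned list of other immediate early genes was left out because it needs gene positions of mm9. Names of neighbouring genes and promoter sequences came from RefSeq tables of GRCm38.p6, and 5 of 6 genes had a promoter entry. Alternatives kept the better-scoring peaks, took equal numbers of top-scoring peaks, merged peaks within 1 kb, widened windows by 10 kb, required 500 bp of overlap, or changed the distance to 5 kb or the ratio to 2. Overlap counting was tested on simulated data. Calculations used Python 3.11.15, numpy 2.4.6 and pandas 2.3.3, and plots matplotlib 3.10.9.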

Additional observations from a re-analysis of the deposited data

How the results depend on the processing

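No paired analysis was possible because the deposited lists hold no separate replicates, so none was left out in turn either. A ratio or count was taken as moved when it changed by more than 1.5 times, and a ratio of at least 1.5 changed direction in 1 case, H3K4me1 at Jun, which was 0 with equal numbers of top-scoring peaks. Windows without adult signal gave no ratio. Among the other ratios of single windows, all 23 of H3K4me3 stayed within this limit, 2 of H3K27ac moved and 42 did not, 11 of H3K4me1 moved and 11 did not, and 3 of H3K27me3 moved and 3 did not. For the 6 windows together, the fetal to adult ratios of H3K4me3 and H3K27ac, and of H3K27ac outside H3K4me3, moved by less than this under the 4 alternatives run. The ratio of H3K4me1, 9.96, was 5.56 with equal numbers of top-scoring peaks. The ratio of H3K27me3, 10.4, was 25.6 with the better-scoring peaks and 27.2 with equal numbers, since both leave out adult peaks of low score. Windows in which H3K4me3 and H3K27me3 overlapped numbered 3 in fetal cells and 2 with the better-scoring peaks. They numbered 2 in adult cells, 0 with the better-scoring peaks, 1 with equal numbers and 1 with at least 500 bp of overlap. The share of regions with more fetal H3K27ac, 19.1%, was 10.1% at a ratio of 2. Nr4a1, the 1 gene past a ratio of 1.5, left 0 genes past a ratio of 2, and 0 with the better-scoring peaks, where its H3K4me3 peaks were below the median score. The fetal to adult ratio of the widest H3K27ac peak, with peaks within 1 kb merged (added after the data had been seen), moved from 2.52 to 1.13 at Egr1, from 1.36 to 2.25 at Fos and from 1.0007 to 1.52 at Junb. The cause of other changes was not tested.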
